A study of Mus musculus with 4 samples.

Results

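Zfp genes are mouse genes that were named for the zinc fingers of their proteins, and 91 of them carried a reproducible region bound by phosphorylated STAT3 (pSTAT3) within 5 kb of a transcription start. The members were chosen by measured values, namely the presence of a reproducible region: genes named Zfp and digits in the authors' table of these regions, without Zfp36, Zfp488 and Zfp536, that had the midpoint of a region within 5 kb of a listed start. These genes held 94 of the 12925 regions. The table named 151 such genes at any distance, and RefSeq lists 364 as protein-coding. Of those 364, 90 (24.7%, 95% Wilson interval 20.6 to 29.4%, counting error only) were members, beside a background of 18.1% of 21887 protein-coding genes with a region within 5 kb. In a window of 1 kb the shares were 20.6% of Zfp genes and 12.8% of all protein-coding genes, and in a window of 25 kb they were close, at 35.7% and 34.4%. With regions of higher reproducibility (irreproducible discovery rate of 0.01 or below) they were 20.3% and 14.8%, and with a -log10 q of at least 10 in both libraries 18.1% and 14.1%. The remaining member, Zfp683, was not matched to a protein-coding gene of that RefSeq table. Since regions chose the members, the numbers and strengths given here are a description, with no test. Peaks of a single library reached more genes. With starts taken from the promoter table as well, 250 Zfp genes had a replicate 1 peak within 5 kb and 163 had a replicate 2 peak. Among the 302 Zfp genes in the promoter table the shares were 69.2% and 44.0%, beside 45.5% and 30.7% of its 17492 protein-coding genes.

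The study mapped tyrosine-phosphorylated STAT3 (Tyr705) by chromatin immunoprecipitation and sequencing (ChIP-seq) in oligodendrocyte progenitors, the dividing cells from which myelin-forming oligodendrocytes arise, cultured from the cortex of C57BL/6 mice. All cells were grown with PDGF-AA at 10 ng/ml together with bFGF at 20 ng/ml, and received 100 ng/ml CNTF, a cytokine that activates STAT3, for 15 min. There were 2 ChIP libraries, made from pooled lysed cells, and 2 input libraries from cells treated in the same way, and no untreated group was analysed here. Replicate 1 had 42189 listed peaks and replicate 2 had 26649, and the median summit height was 30 and 20 fragments. The lowest local background in the lists was 4.72 and 2.91 fragments. Regions lay within 5 kb of a start of the progenitor markers Pdgfra, Cspg4, Olig1 and Olig2, and not of Sox10. Binding is not expression, and which cells of the culture gave a region cannot be told apart here.

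Most mouse Zfp genes encode DNA-binding proteins with tandem zinc fingers. Many also carry a KRAB domain, which recruits the corepressor Trim28 and, through it, the histone methyltransferase Setdb1, and they are best known for silencing transposable elements. These genes multiplied by local duplication, so many stand in clusters of close relatives. STAT dimers bind palindromic sites of the form TTCNNNGAA, where N is any base.

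Most of the strongest sites gathered in 1 gene cluster on chromosome 13. The cluster spans 788 kb (GRCm38, chr13:67038594-67827000) and holds 19 protein-coding Zfp genes, of which 11 were members. It includes the Rsl genes, KRAB zinc finger genes known for repressing sex-dependent liver genes, and Rsl2 is a RefSeq synonym of its member Zfp429. By the lower fold enrichment of both replicates, which serves as strength throughout, 6 of the 10 strongest members lay in it. To show what lies under these peaks, stretches of promoter around the STAT motif are given first. They come from RefSeq (GRCm38.p6), are read 5′ to 3′ on the gene's strand, and carry the 9 bases of the motif in capitals with 10 bases on either side. The first 9 are cluster members in order of strength, and each is the site of that promoter nearest to the peak summits.
Zfp458, chr13:67269182-67269210, minus strand: atttggagtgTTCCTGGAAgtcctttgca
Zfp58, chr13:67500563-67500591, minus strand: cctagctgatTTCCGGGAAattcttcgca
Zfp457, chr13:67306501-67306529, minus strand: cttcagtgggTTCCCGGAAgtccttccaa
Zfp759, chr13:67128138-67128166, plus strand: cttcagtgggTTCCCGGAAgtccttccaa
Zfp595, chr13:67332621-67332649, minus strand: gttctgtgggTTCCTGGAAgttcttcgca
Zfp429, chr13:67399782-67399810, minus strand: actgggagccTTCCAGGAAatccccttct
Zfp455, chr13:67194412-67194440, plus strand: ccacattcagTTCCAGGAAtagcttcgca
Zfp65, chr13:67729201-67729229, minus strand: ctttggtgtgTTCCTGGAAgtcctttaca
Zfp85, chr13:67755204-67755232, minus strand: tcgcgtagacTTCTGGGAAatgtagtctc
The next 3 are neighbours in the cluster that were not members, Rsl1 because it is not named Zfp and the others for want of a region within 5 kb.
Rsl1, chr13:67173139-67173167, plus strand: actgggagccTTCCAGGAAatccccttct
Zfp456, chr13:67375776-67375804, minus strand: actgggagccTTCTAGGAAatacccttct
Zfp953, chr13:67360657-67360685, minus strand: gttctgtgggTTCATGGAAgttcttcgca
Of the other 2 cluster members, Zfp738 had no such motif in its promoter and Zfp87 had no entry in the promoter table.

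Every Zfp gene of the cluster had a peak within 1 kb of a start in at least 1 library, and the members differed among themselves by a wide margin. Zfp458 led with 44.4-fold enrichment in replicate 1 and 43.5-fold in replicate 2, at summits of 253 and 169 fragments. Its region (chr13:67268760-67269743) had its midpoint 183 bp upstream of the start. Zfp58 followed with 38.7-fold and 38.0-fold (259 and 168 fragments). Zfp457 had 28.4-fold and 30.6-fold, so it was among the 5 members that were higher in replicate 2. Zfp759 had 33.2-fold and 26.5-fold. These 4 genes lay above all other members except Zfp608 in both libraries.

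The next 4 members of the cluster formed a middle group. Zfp595 had 18.9-fold and 17.5-fold enrichment. Zfp429 had 18.9-fold and 16.9-fold. Zfp455 had 20.3-fold and 14.6-fold, and Zfp65 had 16.7-fold and 12.3-fold. The midpoints of these 4 regions lay at most 239 bp from a start. At Zfp65 the start of the antisense transcript Zfp85os was nearer, 96 bp away.

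The weakest cluster members were Zfp85 (12.7-fold and 8.75-fold), Zfp87 (11.7-fold and 9.63-fold) and Zfp738 (6.55-fold and 5.40-fold). The 8 Zfp genes of the cluster that were not members had peaks near their starts of 2.92-fold to 6.65-fold in replicate 1. The highest of these, Zfp708, lay above Zfp738 but below the other 10 members. In replicate 2, 4 of these 8 genes had a peak, at 3.74-fold to 6.19-fold. The highest, Zfp953, lay above Zfp738 and below the other 10 members there. The range from the weakest to the strongest gene of the cluster thus appeared in both libraries, and Zfp458 and Zfp58 stood highest in each.

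**Figure D1:**
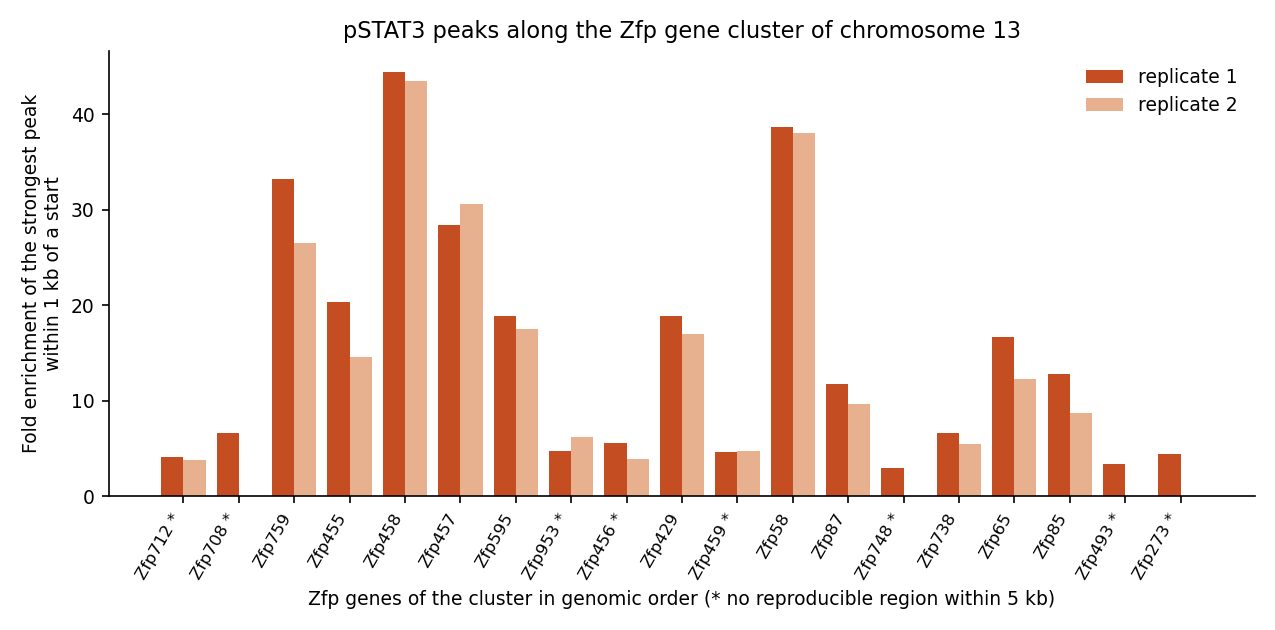
Fold enrichment (y axis) of the strongest pSTAT3 peak within 1 kb of a start for the 19 Zfp genes of the chromosome 13 cluster in genomic order (x axis), with 1 bar per replicate, no bar where a list has no peak, and an asterisk at genes that were not members. Zfp458 and Zfp58 reach 38.0-fold or more in both replicates, and the 8 genes with an asterisk stay at or below 6.65-fold.

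The peak summits of 9 cluster members lay close to the motif, at distances from 0 to 41 bp. At Zfp458 the summits of replicates 1 and 2 were 2 and 1 bp from the centre of the motif, at Zfp759 2 and 0 bp, and at Zfp595 2 and 0 bp. Zfp455 had distances of 9 and 10 bp, Zfp457 of 13 and 9 bp, and Zfp58 of 9 and 25 bp. The farthest were Zfp85 (31 and 8 bp), Zfp429 (34 and 40 bp) and Zfp65 (41 and 16 bp). A motif within 50 bp of both summits was thus found in 9 of the 10 cluster members (90.0%) whose replicate 1 summit lay in the promoter window. Among all members with a summit there it was found in 13 of 35 (37.1%), and among all genes in 173 of 1267 (13.7%). Of these 13 members, 9 lay in the cluster and 4 outside it. The members' shares here and in the next comparison thus rest mostly on the cluster. Where the window held a motif at all, it was that close in 9 of 9 cluster members, in 13 of 17 members (76.5%) and in 173 of 272 genes (63.6%). The summits of the replicates were a median of 20 bp apart over all 12925 regions, 25 bp at the members' strongest regions and 9 bp in the cluster.

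**Figure D2:**
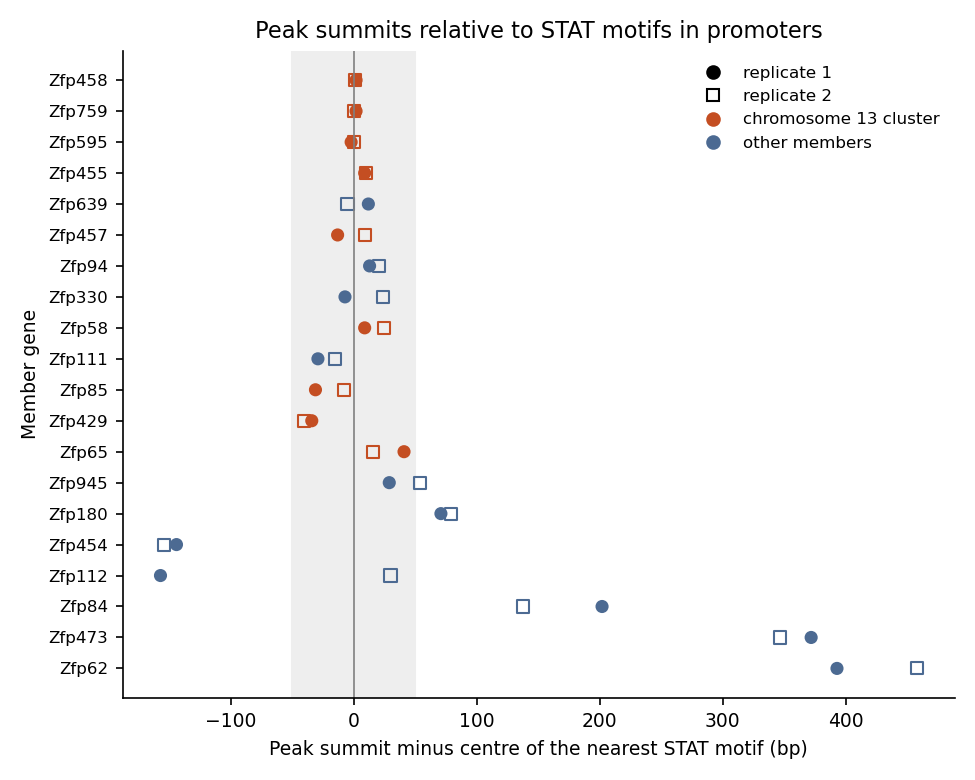
Distance in bp (x axis) of the replicate 1 summit (filled circles) and replicate 2 summit (open squares) from the centre of the nearest STAT motif in the promoter window, for 20 member genes (y axis), all of the 22 with a motif except Zfp184 and Zfp868, whose summits lay over 1 kb away. The 9 genes of the chromosome 13 cluster, in orange, lie within 50 bp of 0 in both replicates, shown by the grey band, while both summits of Zfp62, Zfp473, Zfp84, Zfp454 and Zfp180 and 1 summit each of Zfp945 and Zfp112 lie outside it.

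Duplicated promoters gave close comparisons of sequence and enrichment. Among 136 pairs of 29-base stretches around a motif in the cluster and at Rsl1, 9 pairs differed at 4 or fewer bases. They were picked out after their values were seen. Positions are counted from 1 at the 5′ end of the printed stretch, so the motif is positions 11 to 19, and a substitution gives the first gene's base, the position and the second gene's base. Zfp595 and Zfp953 differed by 1 substitution, C14A, inside the motif. Zfp595 had 18.9-fold and 17.5-fold enrichment and Zfp953 had 4.67-fold and 6.19-fold. Zfp429 and Zfp456 differed by C14T in the motif and C22A beside it. Zfp429 had 18.9-fold and 16.9-fold, whereas Zfp456 had 5.58-fold and 3.91-fold. In both pairs the gene with TTCCNGGAA was the higher of the 2 in both libraries. These are 2 pairs of promoters that also differ outside the printed stretch, and the part of these substitutions in the enrichment was not tested.

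Identical stretches did not bring identical values. Zfp457 and Zfp759 shared all 29 bases and had 28.4-fold and 30.6-fold against 33.2-fold and 26.5-fold, so their order differed between libraries. Zfp429 and Rsl1 also shared all 29 bases, and Rsl1 had 13.2-fold and 10.5-fold, below Zfp429 in both. Zfp85 shared all 29 bases with Zfp708, and had 12.7-fold in replicate 1 against 6.65-fold, while replicate 2 listed a peak at Zfp85 only. Zfp458 and Zfp65 differed at 3 bases (A1C, A7T and G27A), none in the motif, and Zfp458 had 44.4-fold and 43.5-fold against 16.7-fold and 12.3-fold at Zfp65. Reads from near-identical copies can be assigned to the wrong copy. Between any pair of the 10 cluster members' promoter windows the longest shared run was 38 bases, for Zfp457 and Zfp759, with a median of 12 bases over 45 pairs. Over 89 bases aligned on the motif, Zfp457 and Zfp759 were 93.3% identical, Zfp458 and Zfp65 89.9%, and the median of 36 pairs was 52.2%. Pairs with Rsl1, Zfp708, Zfp456 or Zfp953, which are not members, were not compared in this way. The part of such reads in these values was not tested.

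Longer stretches of the 3 promoters show a second shared feature. The 250 bases before the start are given for Zfp458, Zfp58 and Zfp759, with STAT motifs in capitals.
Zfp458, chr13:67268995-67269244, minus strand: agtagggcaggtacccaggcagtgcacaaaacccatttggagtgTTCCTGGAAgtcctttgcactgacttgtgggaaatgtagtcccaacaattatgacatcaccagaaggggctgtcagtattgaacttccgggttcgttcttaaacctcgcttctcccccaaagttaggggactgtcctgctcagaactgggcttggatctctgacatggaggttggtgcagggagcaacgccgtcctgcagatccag
Zfp58, chr13:67500523-67500772, minus strand: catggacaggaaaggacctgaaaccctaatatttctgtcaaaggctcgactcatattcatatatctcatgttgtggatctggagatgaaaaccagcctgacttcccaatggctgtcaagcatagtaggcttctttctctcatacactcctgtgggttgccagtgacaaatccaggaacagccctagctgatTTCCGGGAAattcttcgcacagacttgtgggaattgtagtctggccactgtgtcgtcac
Zfp759, chr13:67127978-67128227, plus strand: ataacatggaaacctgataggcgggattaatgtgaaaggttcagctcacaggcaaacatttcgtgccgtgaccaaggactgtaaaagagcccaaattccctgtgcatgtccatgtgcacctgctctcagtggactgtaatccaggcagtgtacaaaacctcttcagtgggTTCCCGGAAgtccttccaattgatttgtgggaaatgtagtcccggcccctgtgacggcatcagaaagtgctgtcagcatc
Downstream of each motif stands the hexamer TGTAGT. Searched on both strands (as TGTAGT or ACTACA), it was found in the promoter windows of all 10 cluster members with an entry (100%), of 23 of the 71 members with an entry (32.4%) and of 80 of 302 Zfp genes (26.5%), beside 3200 of 27025 genes (11.8%) in the whole table. The 23 members include the 10 of the cluster, and the 80 Zfp genes include the 23 members. The share of the members thus cannot be read apart from the cluster. The hexamer was searched after it was seen in these promoters, and a match shows only that the letters are there.

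Over all members, 22 of the 71 with a promoter entry (31.0%) had TTCNNNGAA in the window, a palindrome that reads alike on both strands. The share was 9.55% of the 27025 genes in the table, 13.2% of the 4021 with a region within 5 kb, and 14.3% of the 231 Zfp genes that were not members. Outside the chromosome 13 cluster, 13 of 61 members (21.3%) had it. With 2 or 4 bases between TTC and GAA, the members' share was 9.86% and 4.23%, and that of all genes 9.60% and 8.01%. So the members' higher share concerned the spacing of 3 bases.

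The letters between TTC and GAA differed between the cluster and the other members. Motifs of the form TTCCNGGAA lay in 11 member promoters (15.5%), 8 of them in the cluster. Its share was 1.35% of all genes, 3.83% of genes with a region and 1.73% of Zfp genes that were not members. Outside the cluster 3 of 61 members (4.92%) had this form, near the share of genes with a region. The motif TTCTGGGAA, counted with its reverse complement TTCCCAGAA, lay in 9 member promoters (12.7%), of which 1, Zfp85, was in the cluster. Its share was 1.49% of all genes, 2.71% of genes with a region and 5.19% of Zfp genes that were not members. Outside the cluster 8 of 61 members (13.1%) had it. A TGTAGT followed within 10 bases at 7 of the 12 TTCTGGGAA sites and at 0 of the 11 TTCCNGGAA sites. Either form matches TTCNNNGAA by its letters only, and which protein binds at these sites was not tested. Members with a TTCCNGGAA site had a median lower enrichment of 16.9-fold, with a median of 13 bp from the site to the farther summit. The 9 with a TTCTGGGAA site had 5.94-fold, and the median over their 12 sites was 122 bp. These sites include that of Zfp184, 4519 and 4579 bp from the summits. This split was made after the sites were seen, and most of the first kind are cluster genes, so the letters and the cluster cannot be told apart. Examples outside the cluster are the following.
Zfp330, chr8:82774221-82774249, minus strand: gcaagtccacTTCCGGGAAggcgggtcct
Zfp639, chr3:32510342-32510364, plus strand: ggccTTCCAGGAAaccgatgagt
Zfp94, chr7:24316745-24316773, minus strand: acgcggagatTTCTGGGAAgtgtcgtcca
Zfp111, chr7:24208144-24208172, minus strand: cactgaggcaTTCTGGGAAtggtaattcc
At these 4 genes the sites lay within 29 bp of both summits, and the stretch of Zfp639 is shorter because its window begins there. Zfp330 had 16.9-fold and 13.1-fold enrichment, Zfp639 12.6-fold and 8.37-fold, Zfp94 24.3-fold and 16.0-fold, and Zfp111 11.0-fold and 8.70-fold. By contrast, the motif of Zfp473 lay 372 and 347 bp from the summits, and those of Zfp62 393 and 458 bp.

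Across the 91 members, the strongest region of a gene had from 2.84-fold to 44.7-fold enrichment in replicate 1, with a median of 10.9, and from 2.64-fold to 43.9-fold in replicate 2, with a median of 8.23. The lower of both values had a median of 8.23-fold, close to 7.94-fold over the 3959 protein-coding genes with a region. A lower enrichment of at least 10-fold was seen in 32 members (35.2%) and 36.0% of those genes, and of at least 20-fold in 5 members (5.49%) and 8.89%. The strengths of the members as a group thus lay close to those of all genes with a region, with no test made. Among the members, the 11 cluster members had a median of 16.9-fold and the 80 others of 7.11-fold. Enrichment was higher in replicate 1 for 86 members and in replicate 2 for 5, and 95.3% of all genes with a region were also higher in replicate 1. The 5 were Zfp457, Zfp41, Zfp113, Zfp68 and Zfp687.

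**Figure D3:**
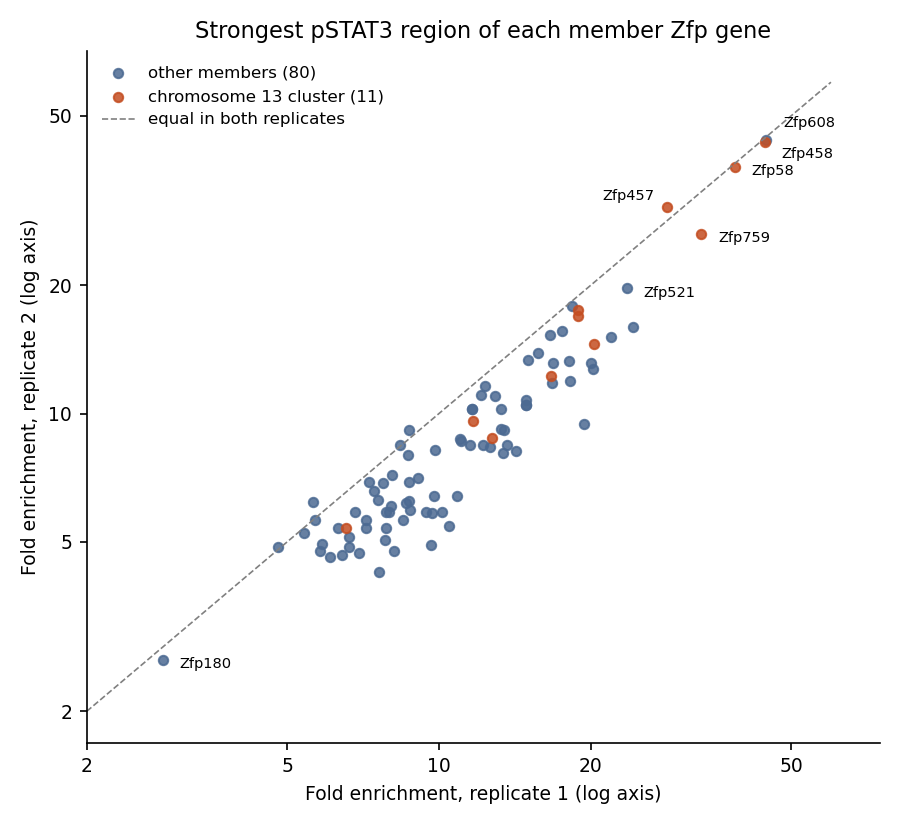
Fold enrichment of the strongest region of each of the 91 members in replicate 1 (x axis) and replicate 2 (y axis), both on log axes, with the 11 genes of the chromosome 13 cluster in orange and equal values on the dashed line. Most points lie below the line, as 86 members are higher in replicate 1, and 4 of the 5 strongest members are orange.

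Outside the cluster the strongest member was Zfp608 on chromosome 18, a relative of Zfp609. It was the member with most regions, 3 within 5 kb of its starts. The strongest (chr18:54989645-54991521) had its midpoint 403 bp upstream of a start, with 44.7-fold and 43.9-fold enrichment and summits of 299 and 210 fragments. Another lay 2.77 kb upstream, with 14.5-fold and 10.5-fold, and another 4.33 kb downstream inside the gene, with 13.3-fold and 9.64-fold. The start of the predicted gene Gm4221 was nearer to the strongest region, at 273 bp. Zfp609 itself had 6.95-fold and 4.70-fold, 255 bp upstream of its start.

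Several members have known roles in neural cells. The deposited table's Zfp191, named Zfp24 by RefSeq, is needed for myelination by oligodendrocytes, and its region spanned the start with 17.6-fold and 15.6-fold enrichment (chr18:24020154-24021058). Zfp521, a multi-finger protein that promotes neural differentiation, had 2 regions. The stronger lay inside the gene, 3.31 kb downstream of a start, with 23.6-fold and 19.7-fold, and the other was at the start, with 10.3-fold and 7.17-fold. Zfp462, which acts in brain development, had 12.4-fold and 11.6-fold at 1.11 kb downstream. Zfp335, which is needed in neural progenitors, had 8.07-fold and 7.16-fold. The antisense gene Zfp335os was nearer to that region, 47 bp away. Zfp503, known from striatal development, had 7.97-fold and 5.89-fold at 1.45 kb downstream. The strongest regions of Zfp191, Zfp521 and Zfp462 lay above the medians of all members in both libraries, while those of Zfp335 and Zfp503 lay below them.

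Other members are known from other systems. Zfp683, or Hobit, a factor of tissue-resident lymphocytes, had 18.4-fold and 17.9-fold enrichment 1.11 kb upstream. Zfp706, which acts in the exit of stem cells from self-renewal, had 16.8-fold and 11.8-fold. Zfp568, a KRAB repressor of a placental Igf2 transcript, had 11.1-fold and 8.64-fold. Zfp281, a regulator of pluripotency, had 9.80-fold and 6.40-fold, 18 bp upstream of its start. Zfp598, the ubiquitin ligase that marks collided ribosomes, had 8.74-fold and 6.92-fold. Zfp516, known from brown fat, had 7.74-fold and 6.88-fold inside the gene at 3.02 kb. Zfp217, an oncogene of breast cancer, had 8.05-fold and 6.07-fold. Zfp384, whose human gene is fused to others in leukaemia, had 7.17-fold and 5.40-fold. Zfp687 had 4.80-fold and 4.86-fold, with the start of 4930481B07Rik nearer, at 53 bp. Of the role list, Zfp407 (11.5-fold and 8.45-fold), Zfp64 (9.45-fold and 5.89-fold) and Zfp292 (6.82-fold and 5.89-fold) were also members. All of these but Zfp683, Zfp706, Zfp568 and Zfp407 lay below the member median in replicate 1.

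The 25 strongest members include 8 of the chromosome 13 cluster and 6 others described above, Zfp608, Zfp521, Zfp683, Zfp191, Zfp706 and Zfp462. Of the remaining 11, Zfp446 (22.0-fold and 15.1-fold), Zfp710 (20.0-fold and 13.2-fold), Zfp442 (18.2-fold and 11.9-fold), Zfp473 (16.6-fold and 15.3-fold), Zfp97 (15.7-fold and 13.9-fold) and Zfp704 (12.1-fold and 11.0-fold) had regions that spanned a start. Zfp60 (15.0-fold and 13.4-fold) and Zfp605 (18.2-fold and 13.3-fold) had regions 785 bp and 2.14 kb upstream, and the start of Gtpbp6 lay nearer to the Zfp605 region, at 188 bp. The last 3 were Zfp330 and Zfp94, given with their sequences, and Zfp428 (20.3-fold and 12.7-fold), and their regions spanned a start as well. The other 66 members had a lower enrichment of 11.0-fold (Zfp408) or less. The weakest were Zfp180 (2.84-fold and 2.64-fold), Zfp202 (7.59-fold and 4.26-fold) and Zfp623 (6.08-fold and 4.62-fold).

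Regions of the members lay close to starts. The nearest region was within 1 kb of a start for 75 members (82.4%) and within 250 bp for 63, and the region spanned a start at the strongest site of 64. Over all 3959 protein-coding genes with a region, 2803 (70.8%) had one within 1 kb. The median distance was 108 bp for members and 268 bp for all these genes. Midpoints were upstream of the start in 53 members and downstream in 38. Near the 5 kb limit, Zfp770 at 4.91 kb (13.5-fold and 9.17-fold), Zfp184 at 4.66 kb and Zfp648 at 4.15 kb were inside. Zfp362 at 5.46 kb, Zfp346 at 5.89 kb (13.8-fold and 9.73-fold) and Zfp532 at 6.58 kb were outside. Strength did not separate the 2 sides of the limit.

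**Figure D4:**
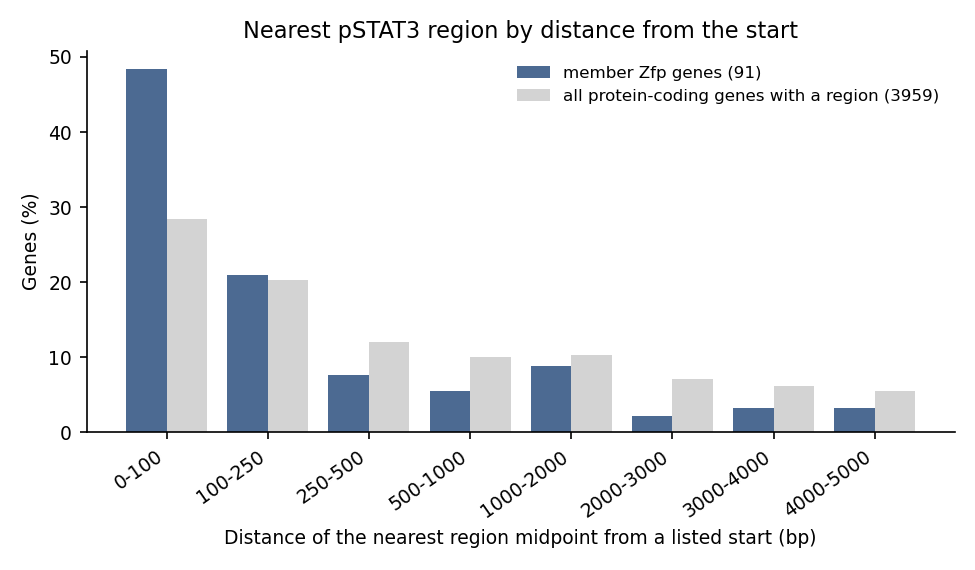
Share of genes in percent (y axis) by the distance in bp of the nearest region midpoint from a listed start (x axis, bins of unequal width), for the 91 members in blue and all 3959 protein-coding genes with a region in grey. Of the members 48.4% lie within 100 bp, against 28.4% of all these genes.

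A region near a start need not belong to that gene alone. For 12 members the start of another gene, not a member, was nearer to the strongest region, and for 4 of these the member's own start was over 1 kb away. At Zfp526 the start of Dedd2 was 125 bp away and that of Zfp526 1467 bp. At Zfp27 a start without a gene name was 112 bp away and that of Zfp27 1833 bp. The start of Vrk3 was 75 bp from the Zfp473 region, and that of Zfp473 105 bp. The start of Gm26766 was 72 bp from the Zfp706 region, and that of Zfp706 193 bp. At Zfp408 and Zfp866 the nearer starts were those of Arhgap1 (45 bp) and Atp13a1 (29 bp), with the member's own start at 282 and 44 bp, so both starts lay at the region. A pair of regions served 2 members each. One lay between Zfp617 and Zfp882 (11.6-fold and 10.3-fold), at 156 and 114 bp from their starts, and the other at the start of Zfp865 and 4.79 kb from Zfp524 (14.9-fold and 10.5-fold). Zfp524 also had a region of its own, with 10.2-fold and 6.40-fold.

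RefSeq positions grouped 187 of the 364 Zfp genes into 28 clusters of 3 or more. Of these 28, 17 held a member. In clusters, 44 of 187 genes (23.5%) were members, and outside them 46 of 177 (26.0%), so members were spread over both. The chromosome 13 cluster had 11 of 19 (57.9%) and the other clusters together 33 of 168 (19.6%), beside the 18.1% of all protein-coding genes. Among the other clusters, 5 had members at 50% of their genes, namely 6 of 12, 3 of 6 in a pair of clusters and 2 of 4 in another pair. In a cluster with 2 of 4, the members Zfp617 and Zfp882 rested on the same region. A further 11 clusters had no member. The largest of these held 12 genes and the rest 3 to 5, so a count of 0 shows little there. Members of the other clusters had a median lower enrichment of 7.05-fold, at most 16.0-fold, and those outside clusters 7.04-fold.

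Chromosome 7, with 88 Zfp genes, held 24 members (27.3%), the most of any chromosome, and 15.1% of all its protein-coding genes had a region. Its cluster at chr7:24081877-24587840 had 6 members among 12 genes. They were Zfp94 (24.3-fold and 16.0-fold), Zfp428 (20.3-fold and 12.7-fold), Zfp111 (11.0-fold and 8.70-fold), Zfp61 (7.87-fold and 5.89-fold), Zfp112 (7.87-fold and 5.38-fold) and Zfp180, the weakest member. In this cluster 4 of the 6, Zfp94, Zfp111, Zfp112 and Zfp180, had TTCTGGGAA in the promoter. A further 3 clusters of the chromosome had 3 members each. These were Zfp865, Zfp524 and Zfp579 (12.2-fold and 8.45-fold) of 6 genes, Zfp444 (9.82-fold and 8.23-fold), Zfp667 (9.69-fold and 5.83-fold) and Zfp28 (8.48-fold and 5.63-fold) of 6 genes, and Zfp568, Zfp27 (7.81-fold and 5.06-fold) and Zfp84 (9.66-fold and 4.91-fold) of 15 genes. By contrast, a cluster of 18 genes on chromosome 17 had 2 members, Zfp51 (7.43-fold and 6.58-fold) and Zfp947 (5.67-fold and 5.61-fold). Chromosomes 10, 16, 19 and X held 5, 5, 2 and 7 Zfp genes and 0 members. Among all protein-coding genes, the share with a region was 17.4% to 19.5% on chromosomes 10, 16 and 19 and 6.83% on X. With so few Zfp genes, a count of 0 shows little there.

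**Figure D5:**
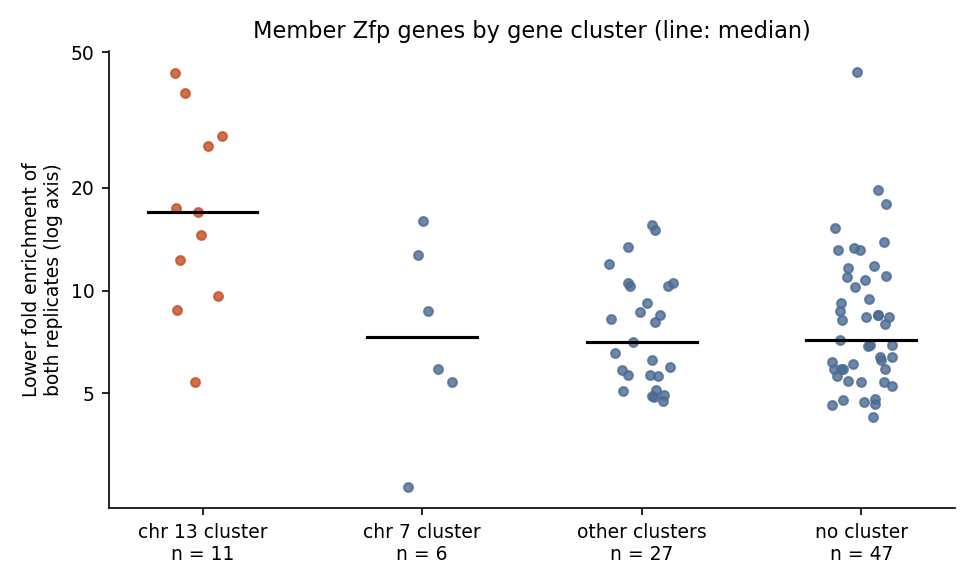
Lower fold enrichment of both replicates (y axis, log axis) for each member, grouped (x axis) as the chromosome 13 cluster, the chromosome 7 cluster with 6 members, all other clusters and genes outside clusters, with medians as lines. The chromosome 13 cluster has a median of 16.9-fold, while Zfp608 at 43.9-fold is the highest point outside clusters.

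The full peak lists reached more Zfp genes than the reproducible table. Of 302 Zfp genes with a promoter entry, 209 (69.2%) had a replicate 1 peak summit within 5 kb of a start and 133 (44.0%) a replicate 2 summit, the 71 members among them included, beside 45.5% and 30.7% of 17492 protein-coding genes in the table. Both lists had a summit there for 131 (43.4%), beside 29.5%. Among the 231 that were not members, 62 (26.8%) had a summit in both lists and 91 (39.4%) in neither. Replicate 1, whose list is longer and whose lowest local background was 1.62 times that of replicate 2, had a summit at 138 of the 231 and replicate 2 at 64. All 91 members had a summit of both lists within 5 kb, which their choice by a reproducible region nearly ensures.

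Genes that work with KRAB zinc finger proteins had regions at a few loci. Of 16 corepressor and chromatin genes, 5 (31.2%) had a region within 5 kb of a start, beside 18.1% of all protein-coding genes. Cbx3, a heterochromatin protein gene, had 29.0-fold and 23.2-fold enrichment at 861 bp upstream. The DNA methyltransferase gene Dnmt3a had 19.0-fold and 15.2-fold at 2469 bp downstream. Chd3, a nucleosome remodeller, had 11.0-fold and 7.62-fold. Trim28 had 9.97-fold and 6.91-fold at 3.85 kb upstream, and Setdb1 5.81-fold and 4.79-fold at 130 bp upstream. Whether the start of another gene was nearer is not given for these 5 genes. The excepted Zfp36, which encodes the mRNA decay factor tristetraprolin, had 4 regions, the strongest with 24.5-fold and 13.9-fold, and Zfp488, an oligodendrocyte partner of Olig2, had 6.70-fold and 5.29-fold. Zfp536 had none within 5 kb.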

How the data were processed

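The data are 2 pSTAT3 ChIP-seq libraries; the input libraries were not analysed here, and read totals are not stated in the sources used here. Per the submitters' processing notes, CASAVA 1.8, Bowtie2 and MACS2 were used on GRCm38.p3; options, and how reads with several matches were treated, are not given there. The authors deposited 1 peak list per library and a joint table of reproducible regions. In the lists, the pileup signal counts fragments at the summit and the fold enrichment is a ratio to local background, per the file headers. A pair of damaged headers hold the -log10 p and -log10 q of each peak, taken from their place and values in the deposited lists. The deposited table gives the irreproducible discovery rate as a fraction of at most 0.05. In that table the column of summits holds midpoints, and the identical pileup and fold columns were not used.

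Values were computed in Python 3.11.15 (pandas 2.3.3, numpy 2.4.6) and drawn with matplotlib 3.10.9; intervals used scipy 1.17.1. Each region took the fold enrichment of the strongest peak of each list that shared at least 1 bp with it. Genes were matched to a RefSeq table (GRCm38.p6) by symbol, or else by an unambiguous synonym. Zfp gene clusters were sets of at least 3 protein-coding Zfp genes of that table with neighbours at most 250 kb apart. Promoters were RefSeq windows of 300 bases, 250 before to 50 after a start. The assignment of peaks to regions and the motif search were tried on simulated data with planted peaks and motifs. The other steps were not tested in this way. The members and lists were chosen with earlier results of these data known. Named genes were the 25 members with the highest lower fold enrichment, members of a list of genes with known roles, members of the clusters with most members, and those at the distance limit or weakest. Other genes of the role list, such as Zfp532, were not members. Some members outside these lists, among them Zfp503, were named as well. No test was made, since the values chose the members, and labels do not say that the libraries came from separate cultures.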

Additional observations from a re-analysis of the deposited data

How the results depend on the processing

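With at least 50% of the shorter interval shared between region and peak, the numbers of members, regions and clustered members, both shares and the median enrichment were the same, and 91 genes were members by the replicate 1 summit in place of the midpoint. The share of Zfp genes with a region was 20.3% at a rate of 0.01 or below, beside 14.8% of all protein-coding genes, 18.1% with a -log10 q of at least 10 in both lists, beside 14.1%, and 35.7% within 25 kb, beside 34.4%. Within 25 kb the regions numbered 153, and 57.3% of the genes had one within 1 kb, against 100% by construction in a 1 kb window. Using peaks of 1 library at a time, with added starts, gave 163 to 250 genes, 198 to 350 peaks and a share of 44.8% to 68.7%. For 17492 protein-coding genes, by starts of the promoter table alone, the share was 30.7% to 45.5%. Of the Zfp genes found, 86.5% to 92.8% had a peak within 1 kb and 88 to 133 lay in clusters. Their median was 5.18-fold to 5.38-fold. The list of 1 library includes peaks that do not recur in the other. The motif share was 9.86% and 4.23% with spacings of 2 and 4 bases, and 21.3% without the chromosome 13 cluster, chosen after seeing the data. Beyond what each setting adds or removes by construction, the cause was not tested. No paired analysis was possible because the input libraries were not analysed here and no result came from a test. Read totals were not used here, so what depth limits could not be given; 4 Zfp genes of the cluster had a peak in replicate 1 only.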

Other observations

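Other zinc finger families, counted by name over the protein-coding genes of the RefSeq table, had different shares of genes with pSTAT3 regions at most 5 kb from a start, beside 18.1% of all 21887 protein-coding genes and with no test. Genes of the Zbtb family, which pair zinc fingers with a BTB domain, had 15 of 41 (36.6%), with Zbtb1 strongest at 39.2-fold and 29.4-fold enrichment. The Zc3h family, whose fingers bind RNA, had 4 of 19 (21.1%), near that share, led by Zc3h11a (20.6-fold and 17.4-fold). Zfp genes with a letter after the digits had 3 of 30 (10.0%), led by Zfp385b (22.0-fold and 15.0-fold), and Zfpm genes had 1 of 2, Zfpm2 (16.5-fold and 11.7-fold). Zscan genes had 0 of 16 and Zkscan genes 0 of 11.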
